A study of Mus musculus with 18 samples.

Results

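Wild-type (WT) sensory neurons of the mouse dorsal root ganglion were followed through their early adaptation to culture, from 12 to 24 h. Members were chosen by genotype and time in the sample titles: 3 WT cultures at 12 h and 3 at 24 h, 6 of the 18 samples of the series. The other samples are WT cultures at 48 h and cultures heterozygous (HET) for Dynlrb1 tm1a, a knockout-first allele of a dynein light chain gene, at 12, 24 and 48 h. WT cultures carry no tm1a allele, and the labels name no treatment, strain or age. Replicates are labelled biological and carry the numbers 1, 2 and 5 at 12 and 24 h in both genotypes. The titles do not say whether same-numbered cultures came from the same mouse, so p-values measure only the spread between these samples. Values are the authors' normalized counts, listed below in the order of replicates 1, 2 and 5.

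Plating a sensory neuron cuts its axon, so a dissociated culture is an injured neuron that regrows. Axon injury is known to switch on transcription factors such as ATF3, JUN and SOX11, and then genes for growth cone proteins, neuropeptides and cytoskeletal parts. Injured sensory neurons also lower many genes of their mature state, among them ion channels and markers of sensory subtypes.

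The cultures carried the markers of sensory neurons at both times. Prph, which encodes the intermediate filament peripherin, lay between 54806 and 75447 normalized counts in the 6 cultures. Uchl1, a neuronal ubiquitin hydrolase, lay between 69340 and 85734. The summed level of 14 pan-sensory markers ran from 431089 to 472108 at 12 h and from 411923 to 451292 at 24 h. RNA of other cells was present too. The summed level of 17 satellite glia and Schwann lineage markers was 79485 to 108721 at 12 h and 72853 to 79092 at 24 h. Sums of 17 endothelial markers (19577 to 30722), 16 fibroblast and mural markers (15667 to 27372) and 17 macrophage markers (3056 to 5995) overlapped between the times. No listed marker that was measured stood at 0 in any culture. Less RNA of a cell type can mean fewer such cells or less RNA per cell, and the 2 cannot be told apart here. Depth per culture is unknown because the deposited values were scaled. Pearson correlations of log2 values between cultures of the same group ran from 0.982 to 0.992. Between cultures of different times they ran from 0.979 to 0.987, so the ranges overlapped. Xist, the RNA of the inactive X chromosome, was 18316, 1854 and 83.4 at 12 h and 25866, 1582 and 36.1 at 24 h, so cultures of 1 group differed in it far more than the times did.

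Between 12 and 24 h, more genes rose than fell. With limma and Benjamini-Hochberg adjustment, 622 of 17198 genes (3.62%) passed an adjusted p of 0.05, 509 higher (2.96%) and 113 lower (0.657%) at 24 h. The genes that passed had a median log2 change of 0.59 among the higher ones (from 0.26 to 2.87) and of -0.69 among the lower ones (from -2.11 to -0.34). A log2 change above 1 was reached by 102 of the 509, and one below -1 by 18 of the 113. All 622 had no overlap between the groups, against 18% of all genes with 24 h above and 8.94% with 24 h below. The median change over all genes was 0.05. The authors' deposited table holds 854 genes at an adjusted p under 0.05, 568 higher (3.3%) and 286 lower (1.66%). Of these, 546 were among the 622, or 87.8% of the 622 and 63.9% of the 854.

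In this fit the calls stood close to the threshold, the lowest limma adjusted p being 0.0212, and their number rested on all 6 cultures. The lowest limma adjusted p was 0.00212 with same-numbered cultures of a genotype treated as blocks. It was 0.00136 when only the 6 WT cultures entered the fit. Neither of those settings was refitted with a culture left out. Leaving out replicate 1, 2 or 5 at 12 h gave 197, 0 and 85 calls, and leaving out replicate 1, 2 or 5 at 24 h gave 0 each time. The count was also 0, with 3560 genes at an unadjusted p under 0.05, when limma was run without a mean-variance trend. All 622 genes kept their sign in each of these fits, but could not have lost it. Their groups do not overlap, and the trend does not enter the log2 change. The share of calls that were higher was 81.8%, and 61.9% when only the 6 WT cultures entered the fit.

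The gene with the largest rise by the naming rule was Sprr1a, which encodes a small proline-rich protein of the skin that injured sensory neurons are known to make. Sprr1a (ENSMUSG00000050359, chromosome 3, 92483954 to 92485881 of GRCm38.p6) had 370, 209 and 197 normalized counts at 12 h and 1134, 2159 and 1909 at 24 h. The lowest 24 h culture stood above the highest 12 h culture, and the log2 change was 2.75 (SE 0.62, limma adjusted p = 0.0273). Sdc1, the cell-surface proteoglycan syndecan-1, had 1835, 1886 and 3351 at 12 h and 7510, 9164 and 12957 at 24 h. By FPKM, which divide by gene length, it was the most abundant of the 12 largest rises, at 18.6 and 77.9, with no overlap and a log2 change of 2.09 (SE 0.44, limma adjusted p = 0.0242).

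**Figure D1:**
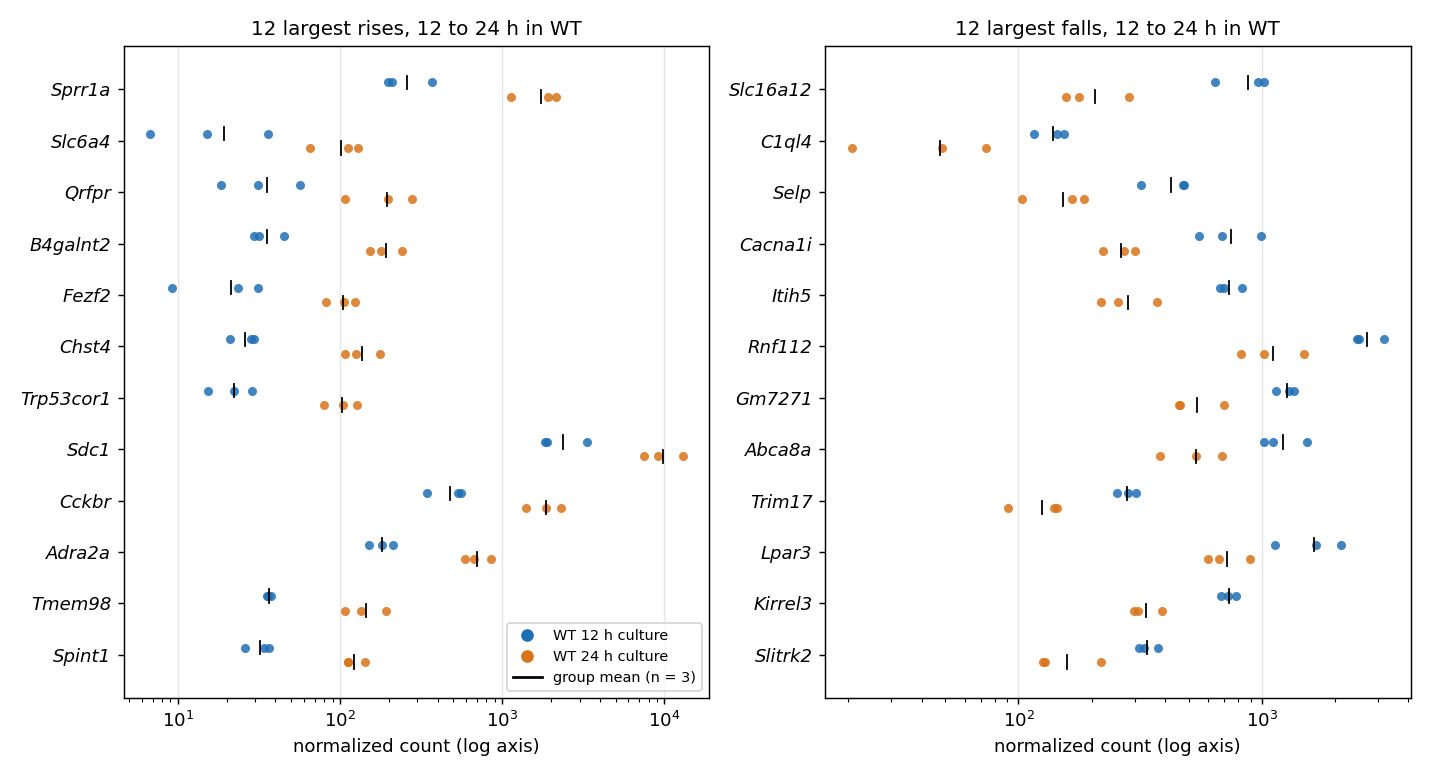
Normalized counts (log axis) of the 12 genes with the largest rise and the 12 with the largest fall among genes that passed the test. Each dot is 1 WT culture, blue at 12 h and orange at 24 h, and black ticks are means of 3 cultures; the groups overlap for none of the 24 genes because the naming rule asked for that.

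The 12 largest rises included a transporter and 3 receptors of signalling molecules. Slc6a4, the serotonin transporter, had 36.2, 6.78 and 15.1 at 12 h and 65.1, 112 and 129 at 24 h, with no overlap (log2 change 2.57, SE 0.48, limma adjusted p = 0.0212). Cckbr, a receptor for cholecystokinin and gastrin that is known to rise in sensory neurons after nerve injury, had 557, 342 and 537 at 12 h and 1398, 1864 and 2310 at 24 h (log2 change 1.96, SE 0.39, limma adjusted p = 0.0222). The lowest 24 h culture of either gene stood above its highest 12 h culture. Adra2a, an adrenergic receptor, had 211, 151 and 181 at 12 h and 588, 858 and 667 at 24 h (log2 change 1.95, SE 0.42, limma adjusted p = 0.0247). Qrfpr, the receptor of the neuropeptide QRFP, rose by a log2 change of 2.46 from at most 57.1 at 12 h to at least 107 at 24 h. The rest of the 12 were B4galnt2 and Chst4, which encode a glycosyltransferase and a sulfotransferase, Fezf2, a transcription factor of developing neurons, the p53-induced long noncoding RNA Trp53cor1, the membrane protein gene Tmem98 and the protease inhibitor gene Spint1. Their log2 changes lay between 1.90 and 2.40.

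Sequence before the start site used is shown for named genes that rose and whose promoter holds TGANTCA. These letters are a loose form of the AP-1 heptamer TGA(C/G)TCA, the site bound by JUN, FOS and ATF3-containing dimers. Those factors are the known early regulators of the injury response. The search allowed any middle base, which is A in the Fezf2 match and G in the other matches shown. They are Sprr1a, Fezf2 and Chst4 from the 12 largest rises, Srxn1 from the 6 largest rises in normalized counts, the neuropeptide gene Nts, and Cd68, a lysosomal gene best known from macrophages. Spint1 and Rtn4, whose match lies across or after the start site, are not shown. Named genes that did not rise hold these letters too. Among them are Selp, which fell and has a match 139 bases before its start site, and the uncalled Hspa5, Ddit3, Bdnf, Npy1r, Lif and Il6. Sequences are from RefSeq, build GRCm38.p6, written from 5′ to 3′ on the gene's strand, with the searched letters (TGANTCA) in capitals. They end at or before the start site used, which for Fezf2 and Chst4 lies inside the annotated gene.
Sprr1a, chr3:92485882-92486087, minus strand: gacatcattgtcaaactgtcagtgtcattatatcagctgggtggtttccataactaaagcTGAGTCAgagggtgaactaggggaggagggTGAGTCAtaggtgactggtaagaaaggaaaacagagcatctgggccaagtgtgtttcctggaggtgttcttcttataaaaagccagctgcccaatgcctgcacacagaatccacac
Fezf2, chr14:12345960-12346006, minus strand: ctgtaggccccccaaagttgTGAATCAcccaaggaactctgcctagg
Chst4, chr8:110039367-110039413, minus strand: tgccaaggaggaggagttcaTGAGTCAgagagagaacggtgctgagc
Srxn1, chr2:152105402-152105505, plus strand: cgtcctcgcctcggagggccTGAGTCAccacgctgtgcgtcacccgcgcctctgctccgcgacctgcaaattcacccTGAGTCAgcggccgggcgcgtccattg
Nts, chr10:102490599-102490645, minus strand: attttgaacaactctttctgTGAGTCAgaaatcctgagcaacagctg
Cd68, chr11:69666171-69666339, minus strand: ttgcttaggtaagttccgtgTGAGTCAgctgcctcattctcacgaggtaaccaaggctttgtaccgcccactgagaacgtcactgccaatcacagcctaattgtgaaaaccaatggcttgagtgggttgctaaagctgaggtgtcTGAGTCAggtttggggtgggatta

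The match to TGANTCA starts 146 and 116 bases before the Sprr1a start site and 102 and 45 bases before that of Srxn1, and 149 and 24 bases before that of Cd68. It starts 121 bases before the start used for Fezf2, 59 before that of Chst4 and 207 before that of Nts. The starts used for Fezf2 and Chst4 lie inside the annotated genes (chromosome 14, 12338992 to 12346803, and chromosome 8, 110029075 to 110039401). Their matches lie inside the annotated genes too, and so are not upstream of them. Promoters (250 bases before to 50 after the start, both strands) were matched by Entrez gene ID, or else by symbol, for 12962 of the 17198 genes. TGANTCA was found in 42 of 513 promoters of genes that rose (8.19%), in 5 of 127 of genes that fell (3.94%) and in 956 of 16354 of all genes tested (5.85%). Such a match is a description of letters and shows no binding.

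The 6 largest rises in normalized counts were those of Syt4, Srxn1, Rtn4, Itga7, Aars and Hspb8. Syt4, a synaptotagmin that is known to be induced by activity and to ride on dense-core vesicles, had 49398, 58255 and 65188 at 12 h and 80463, 79499 and 87997 at 24 h (log2 change 0.53, SE 0.12, limma adjusted p = 0.0273). Srxn1, a sulfiredoxin that repairs oxidized peroxiredoxins, had 43429, 46755 and 35906 at 12 h and 65444, 64563 and 57960 at 24 h (log2 change 0.58, SE 0.14, limma adjusted p = 0.0366). Neither gene overlapped between the times. Rtn4, the reticulon that encodes the Nogo proteins, rose from 76124, 80432 and 78696 to 93715, 100228 and 100508 (log2 change 0.32, SE 0.08, limma adjusted p = 0.0421). The integrin gene Itga7 is described below. The small heat shock protein gene Hspb8 rose by a log2 change of 0.47 and the alanyl-tRNA synthetase gene Aars by 0.55, each with every 24 h culture above every 12 h culture. Aars also has a C/EBP-ATF element (TGATGCAA, on either strand) that starts 112 bases before the start site used. That start and the element lie inside the annotated gene (chromosome 8, 111027778 to 111055569). The sequence was present in 0.611% of all promoters searched, in 0.975% of those of genes that rose and in 0 of those of genes that fell.
Aars, chr8:111033710-111033757, plus strand, element in capitals: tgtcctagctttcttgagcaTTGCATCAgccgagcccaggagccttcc

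Transcription factors of the injury response such as Atf3 and Jun were abundant at 12 h, and none of those listed passed the test between 12 and 24 h. Of 26 measured members of a list of injury transcription factors, 0 were called and 14 had a positive change, with a median of 0.01. Over all genes 3.62% were called, a share at which a list of this size can well hold none. With same-numbered cultures of a genotype treated as blocks, 3 members were called higher and 1 lower, where 1621 of 17198 genes were called. Atf3 had 28810, 30159 and 24692 at 12 h and 41625, 39686 and 39603 at 24 h. The 24 h cultures stood above the 12 h cultures, but the change of 0.54 (SE 0.21) did not pass (limma adjusted p = 0.150). In the authors' FPKM, Atf3 stood at 340 and 491 at the 2 times and Jun at 161 and 154. Sox11 had 10497, 13532 and 17949 against 18821, 22840 and 21182 (log2 change 0.61, SE 0.21, limma adjusted p = 0.0997). Jun, at 21439, 23050 and 19502 against 20757, 22360 and 17924, overlapped between the times (log2 change -0.07).

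Immediate early genes, which cells switch on within minutes of a stimulus, gave 0 calls among 28 (against 3.62% of all genes, a share at which a list of this size can well hold none), a median of -0.17 and 8 positive changes. Fos had 6097, 6212 and 5521 at 12 h and 2752, 3347 and 3682 at 24 h. Its groups did not overlap, and its change of -0.87 (SE 0.36) did not pass (limma adjusted p = 0.166). With replicate blocks Fos did pass (limma adjusted p = 0.00665), and 1 member of the list was called higher and 2 lower. In HET, Fos was called lower (log2 change -1.33, limma adjusted p = 0.0167). Egr1 stood at 2446 and 1800 in replicates 1 and 5 at 24 h but at 5566 in replicate 2, inside the 12 h range of 4399 to 5971.

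Among effector genes of regeneration rises outnumbered falls. Of 42 measured members, 7 rose and 1 fell (against 2.96% and 0.657% of all genes), and 32 of the 42 had a positive change, with a median of 0.45. The 7 were Sprr1a, Ecel1, Gpr151, Nts, Itga7, Stmn4 and Tubb2a. Ecel1, an endopeptidase-like enzyme that is known to mark injured neurons, had 1710, 819 and 986 at 12 h and 3249, 4167 and 4120 at 24 h (log2 change 1.78, SE 0.46, limma adjusted p = 0.0441). Gpr151, an orphan receptor, had 491, 805 and 985 at 12 h and 1335, 1899 and 2859 at 24 h (log2 change 1.40, SE 0.37, limma adjusted p = 0.0468). Neither overlapped between the times. Itga7, the laminin-binding integrin subunit, had 13314, 10780 and 10624 against 20556, 24445 and 24207 (limma adjusted p = 0.0459). Gap43, the growth-associated protein of axon tips, was abundant at both times and overlapped (14591, 13350 and 11340 against 13758, 14163 and 17673). The member that fell was Dpysl2, which encodes the tubulin-binding protein CRMP2, at 47149, 50617 and 49882 against 37151, 39054 and 37497 (log2 change -0.38, SE 0.09, limma adjusted p = 0.0307).

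Among 15 tubulin genes 2 rose and 0 fell (against 2.96% and 0.657% of all genes). Tubb2a had 13357, 14211 and 10375 at 12 h and 19391, 18684 and 20805 at 24 h, and Tuba1c had 1106, 1097 and 796 against 1697, 1743 and 1881. Neither overlapped, and the log2 changes were 0.65 (SE 0.12) and 0.84 (SE 0.19), with limma adjusted p of 0.0212 and 0.0253. Of the guidance and matrix genes, Sema3c, a secreted semaphorin, rose by 0.73, Efna2, an ephrin ligand, by 0.96, and Lamb3, a laminin chain, by 1.66, while the Eph receptor gene Epha6 fell by 0.69 on the log2 scale. Each of these 4 was the only member of its list called in its direction, out of 31 semaphorins and plexins, 21 ephrins and Eph receptors and 11 laminins. None of 22 dynein and dynactin genes was called. Dynlrb1 itself had 6674, 6589 and 5321 at 12 h and 5702, 5229 and 6427 at 24 h and overlapped between the times (log2 change -0.10).

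**Figure D2:**
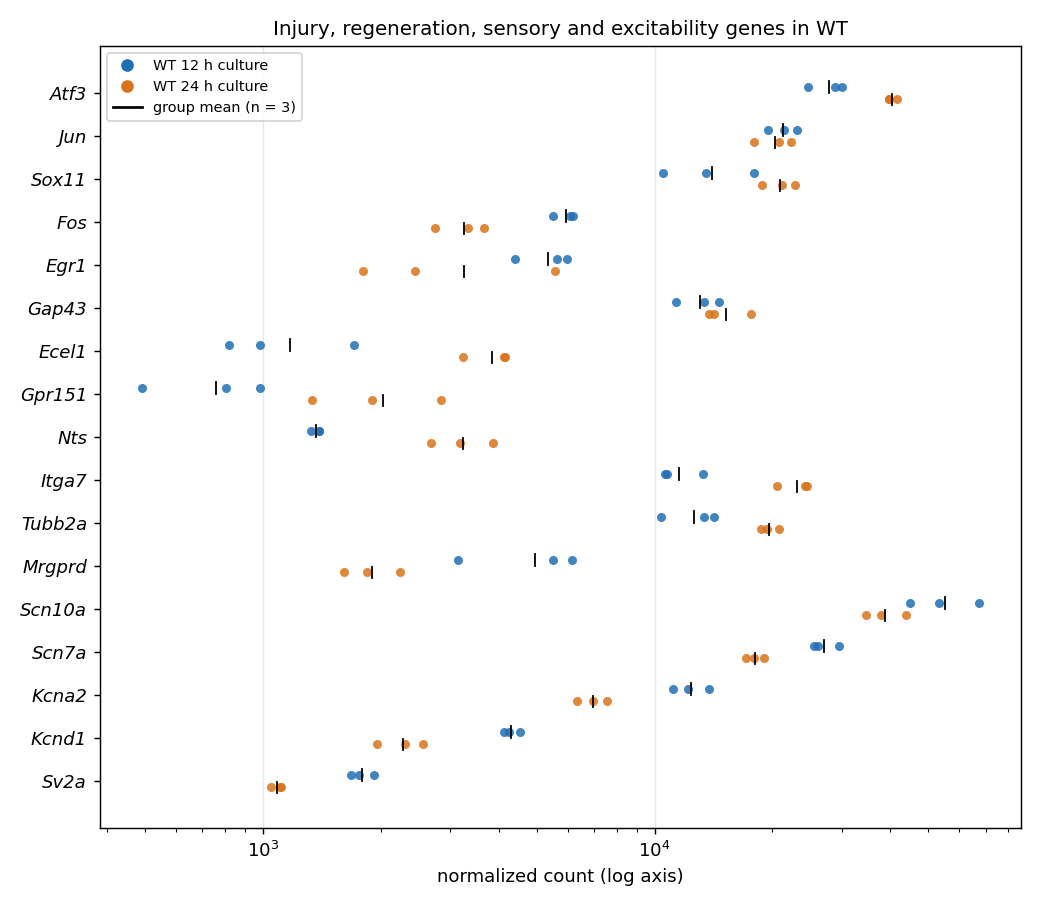
Normalized counts (log axis) of 17 genes in each WT culture at 12 h (blue) and 24 h (orange), with means of 3 cultures as black ticks. Ecel1, Gpr151, Nts, Itga7 and Tubb2a lie to the right at 24 h, Scn7a, Kcna2, Kcnd1 and Sv2a lie to the left, and Jun, Egr1 and Gap43 overlap.

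Neuropeptide genes gave 2 rises and 0 falls among 22 (against 2.96% and 0.657% of all genes). Nts, the precursor of neurotensin, had 1331, 1392 and 1392 at 12 h and 3189, 2683 and 3880 at 24 h, so that the lowest 24 h culture stood above every 12 h culture (log2 change 1.23, SE 0.28, limma adjusted p = 0.0273). Adcyap1, the precursor of PACAP, had 12747, 14753 and 13912 against 20838, 21518 and 19301 (log2 change 0.58, SE 0.15, limma adjusted p = 0.0466). Calca, the precursor of CGRP, overlapped between the times and its change of -0.14 did not pass. Npy, which mature sensory neurons barely express and injured ones are known to induce, had 7.43, 24.4 and 34.8 at 12 h and 89.9, 62.2 and 66.8 at 24 h. The Npy groups did not overlap, but the change of 1.89 had an SE of 0.72 (limma adjusted p = 0.138). At 48 h the WT cultures had 866 ± 442 (SD, n = 3).

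Markers of sensory subtypes leaned downward, with few calls in the fit without replicate blocks (over all genes 2.96% were called higher and 0.657% lower). Treating same-numbered cultures of a genotype as blocks gave more calls. Then 8 of 19 non-peptidergic, 6 of 16 peptidergic and 9 of 24 low-threshold and proprioceptor markers were called lower, and 1 peptidergic marker higher. Of all 17198 genes, 553 were called lower and 1068 higher with these blocks. The counts below are without blocks. Of 19 markers of non-peptidergic nociceptors 1 passed and 2 had a positive change, with a median of -0.74. The 1 was Lpar3, a lysophosphatidic acid receptor, which had 1129, 1663 and 2106 at 12 h and 600, 670 and 892 at 24 h (log2 change -1.15, SE 0.31, limma adjusted p = 0.0491). Mrgprd, the itch and pain receptor that defines most of these cells, had 3150, 5521 and 6167 against 1845, 1611 and 2239. Its groups did not overlap, and its change of -1.34 came with an SE of 0.68 and did not pass (limma adjusted p = 0.267). P2rx3, the ATP-gated channel of the same cells, pointed the other way at 14013, 16905 and 19939 against 20349, 24926 and 20223 (log2 change 0.37, limma adjusted p = 0.112). Among 16 peptidergic markers 3 fell and 1 rose, with a median of -0.35. The falls were the cold receptor Trpm8 (log2 change -0.83), the stem cell factor receptor Kit (-0.61) and the regulator Prdm8 (-0.48), and the rise was Adcyap1. Of 24 markers of low-threshold mechanoreceptors and proprioceptors 0 were called and 5 had a positive change, with a median of -0.41. Piezo2, the touch channel, had 27931, 26217 and 36072 at 12 h and 20697, 21503 and 18766 at 24 h and just missed the threshold (log2 change -0.55, SE 0.15, limma adjusted p = 0.0561). Of the 14 pan-sensory markers 1 fell, Rbfox3, which encodes the nuclear protein NeuN (log2 change -0.53). The neurotrophic factor receptor Gfra3, the binding partner of artemin, rose by 0.59 and was the 1 call among 10 neurotrophin and GDNF-family receptors.

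Among genes of excitability, falls outnumbered rises. The replicate blocks gave 19 falls and 1 rise among 87 potassium channel genes, 8 falls among 13 sodium and 3 among 24 calcium channel genes. Of all 17198 genes, 553 fell and 1068 rose with these blocks. The counts that follow are without blocks. Among 87 potassium channel genes 6 fell and 0 rose (against 0.657% and 2.96% of all genes), with a median of -0.33 and 21 positive changes. Kcna2, a fast-activating axonal channel, had 12165, 11134 and 13768 at 12 h and 6343, 7584 and 6949 at 24 h (log2 change -0.83, SE 0.17, limma adjusted p = 0.0241). Kcnd1, an A-type channel, had 4247, 4536 and 4122 against 2307, 2565 and 1956 (log2 change -0.93, SE 0.18, limma adjusted p = 0.0212). For both channels the highest 24 h culture was below the lowest 12 h culture. Kcnd3 fell too, as did the accessory subunit gene Kcnab2, which was also among the 6 largest falls in normalized counts.

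All 13 sodium channel genes had a negative change, with a median of -0.49, and 1 fell (against 0.657% of all genes). Scn7a, an atypical channel found in sensory neurons and in glia, had 29499, 25560 and 26204 at 12 h and 18988, 17106 and 17938 at 24 h (log2 change -0.59, SE 0.13, limma adjusted p = 0.0288). Scn10a, which encodes the nociceptor channel Nav1.8, had 44849, 53261 and 67148 against 37889, 43851 and 34563. Its groups did not overlap and its change of -0.49 did not pass (limma adjusted p = 0.106). Of 24 calcium channel genes 2 fell and 0 rose, against the same shares of all genes as above. Cacna1i, a low-voltage-activated channel, had 687, 554 and 991 against 272, 223 and 300 (log2 change -1.45, SE 0.31, limma adjusted p = 0.0247), and Cacnb4, an auxiliary subunit, changed by -0.50. Gnao1, the G protein subunit that couples many receptors to channels, had 19026, 27966 and 27247 against 13723, 15855 and 12716 (log2 change -0.80, SE 0.21, limma adjusted p = 0.0442).

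Of 24 genes of synaptic vesicle release 2 fell, 1 rose (against 0.657% and 2.96% of all genes) and 2 had a positive change, with a median of -0.41. Sv2a, the vesicle protein, had 1765, 1683 and 1920 at 12 h and 1104, 1048 and 1113 at 24 h (log2 change -0.72, SE 0.12, limma adjusted p = 0.0212). Unc13a, which primes vesicles for fusion, had 8420, 7668 and 8822 against 6337, 6058 and 5786 (log2 change -0.45, SE 0.10, limma adjusted p = 0.0254). Neither overlapped between the times. The member that rose was Syt4. The replicate blocks gave 12 falls and 2 rises among these 24 genes, where 553 of all 17198 genes fell and 1068 rose.

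The largest fall by the naming rule was that of Slc16a12, a creatine transporter of the monocarboxylate family on chromosome 19 (34668401 to 34747493 of GRCm38.p6). It had 645, 1020 and 966 at 12 h and 177, 156 and 285 at 24 h, with no overlap (log2 change -2.11, SE 0.46, limma adjusted p = 0.0248). C1ql4, a secreted C1q-like protein, had 154, 116 and 144 against 20.6, 48.7 and 73.4 (log2 change -1.68). Rnf112, a brain ubiquitin ligase, had 2451, 2508 and 3174 against 1021, 823 and 1484 (log2 change -1.32). Each stood lower in all 3 cultures at 24 h. The adhesion genes Kirrel3 and Slitrk2 fell by 1.14 each on the log2 scale. Itih5, Abca8a and Selp, which encode a matrix protein, a lipid transporter and the endothelial adhesion protein P-selectin, fell as well. Itih5 and Abca8a fell by 1.41 and 1.21 on the log2 scale, and Selp had 478, 475 and 320 at 12 h and 165, 187 and 103 at 24 h. Selp was the 1 call among 17 endothelial markers (over all genes 2.96% were called higher and 0.657% lower), whose summed level overlapped between the times. The satellite glia and Schwann lineage sum was lower in every 24 h culture than in every 12 h culture, by a narrow margin (79092 against 79485). That list had 0 calls among 17, 3 positive changes and a median of -0.44. At the shares of all genes given above, a list of this size can well hold no call. Fabp7 stood at 191, 252 and 228 against 101, 85.5 and 115 (limma adjusted p = 0.0917). Apoe stood at 21524, 24422 and 16921 against 9569, 10621 and 12372 (limma adjusted p = 0.171). The part of glial or endothelial RNA in the falls was not tested.

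**Figure D3:**
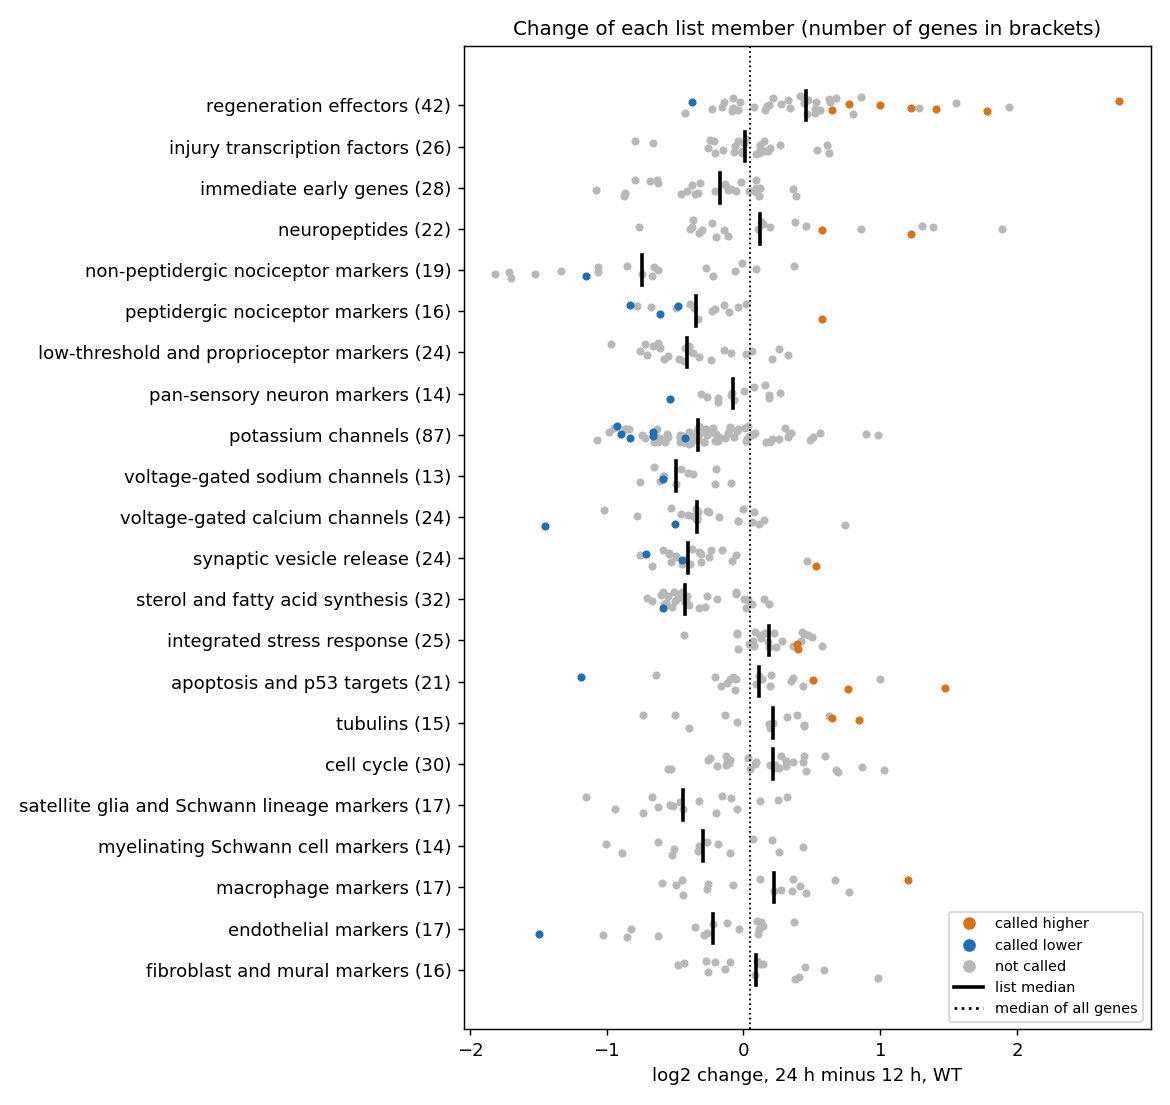
Log2 change from 12 to 24 h in WT of every measured member of 22 gene lists, with orange dots for members called higher, blue for called lower and grey for not called. Black bars are list medians and the dotted line is the median of all genes (0.05); the regeneration effectors lie to its right (median 0.45) and the channel, nociceptor and sterol lists to its left.

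Stress and death genes gave a few calls. Among 21 genes of apoptosis and p53 response 3 rose and 1 fell (against 2.96% and 0.657% of all genes). Ccng1, a p53-induced cyclin, had 10597, 10564 and 11096 at 12 h and 17100, 17049 and 20847 at 24 h (log2 change 0.76, SE 0.13, limma adjusted p = 0.0212). Pmaip1, which encodes the BH3 protein NOXA, had 417, 376 and 322 against 863, 1108 and 1144 (log2 change 1.48, SE 0.29, limma adjusted p = 0.0222). Neither overlapped. Apaf1, the scaffold of the apoptosome, rose by 0.51, and Trim17, a ubiquitin ligase that is known to promote neuronal death, fell by 1.18 on the log2 scale. Cdkn1a, the p53-induced cell cycle inhibitor p21, did not pass (log2 change 0.43), with 1 culture at 15145 and the other two at 24 h at 7960 and 7397. Of 25 genes of the integrated stress response, which slows translation and raises amino acid supply, 2 rose, Asns and Mthfd2, by 0.39 and 0.40. Of the 25, 21 had a positive change, with a median of 0.19 (0.05 over all genes), and replicate blocks called 6 higher. Atf4, the main transcription factor of that response, did not pass (log2 change 0.12). Of 19 heat shock and chaperone genes Hspb8 was the 1 call, and of 21 endoplasmic reticulum folding genes 0 were called.

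Of 32 genes of sterol and fatty acid synthesis 1 fell (against 0.657% of all genes) and 6 had a positive change, with a median of -0.43. The 1 was Srebf2, the transcription factor that drives sterol genes, at 5164, 5295 and 6941 against 3502, 4465 and 3595 (log2 change -0.59, SE 0.15, limma adjusted p = 0.0466). Hmgcs1, an early enzyme of the pathway, had 24567, 29075 and 23878 against 16768, 17326 and 20744. It stood lower in every 24 h culture but missed the threshold (log2 change -0.50, SE 0.16, limma adjusted p = 0.0906). Cell cycle genes (30), ribosomal proteins (82), respiratory chain subunits (78), proteasome subunits (39), interferon response genes (18) and cytokine signalling genes (31) had 0 calls. Over all genes 3.62% were called in either direction, a share at which the smaller of these lists can well hold none. Positive changes numbered 1 of 18 interferon (median -0.22), 9 of 78 respiratory chain (-0.09) and 9 of 31 cytokine genes (-0.17). They numbered 32 of 39 proteasome (0.12), 20 of 30 cell cycle (0.21) and 50 of 82 ribosomal genes (0.04). Over all genes they were 9722 of 17198. Mki67, a marker of dividing cells, had 188, 221 and 257 at 12 h and 226, 136 and 209 at 24 h.

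HET cultures share no sample with the WT cultures, so they give the same interval in separate cultures. Xist followed the replicate number in both genotypes, and the labels do not say whether same-numbered WT and HET cultures were prepared together. The HET cultures may thus not be independent of the WT ones. The HET cultures did enter the estimate of spread per gene behind the WT calls, and a gene with a low shared spread is favoured in both genotypes. Of the 509 genes that rose in WT, 506 had a positive change in HET and 470 (92.3%) were also called higher there, where 13.1% of all genes were. Of the 113 that fell in WT, all 113 had a negative change in HET and 106 (93.8%) were called lower, where 5.76% of all genes were. None was called in the opposite direction. With each genotype fitted on its own 6 cultures, limma called 519 genes higher (3.02%) and 320 lower (1.86%) in WT, and all of them had the same sign in HET. Of the 519, 470 were also called higher in HET, or 90.6% of the 519 and 25.4% of the 1853 (10.8% of all genes) called higher there. Of the 320, 228 were also called lower, or 71.3% of the 320 and 25.7% of the 886 (5.15% of all genes) called lower there. The median change in HET of the 509 and 113 genes was 0.65 for the higher and -0.70 for the lower ones. The 12 largest rises in WT were all called higher in HET, with Fezf2 at 3.70 against 2.37 in WT. Of the 12 largest falls 11 were called lower, with Slc16a12 at -3.60 against -2.11 in WT, while Selp, at -1.07, missed the threshold (limma adjusted p = 0.0580).

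**Figure D4:**
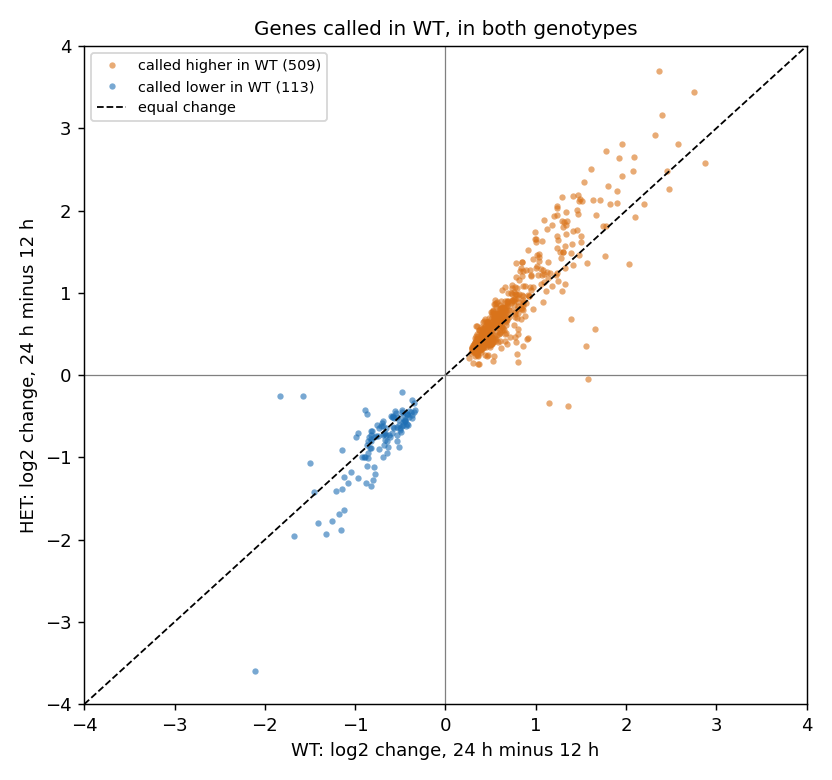
Log2 change from 12 to 24 h in HET (vertical) against WT (horizontal) for the 509 genes called higher (orange) and the 113 called lower (blue) in WT; the dashed line marks equal change. All but 3 genes lie in the quadrants of the same direction.

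More genes were called in HET, 3252 (18.9%), of which 2261 were higher and 991 lower. Of those 2261, 2220 had a positive change in WT and 470 (20.8%) were called there. Of the 991, 977 had a negative change in WT and 106 (10.7%) were called. The sterol list had 20 falls and 0 rises in HET (where 5.76% and 13.1% of all genes were called) against 1 and 0 in WT, and the non-peptidergic list 15 falls against 1. The difference between the genotypes in the 12 to 24 h change was tested itself and gave 0 of 17198 genes (0%) in limma, with 370 at an unadjusted p under 0.05. The lowest p belonged to Vangl2, a planar polarity gene, at 46.1, 43.1 and 35.5 in WT at 12 h and 44.3, 31.8 and 41.5 at 24 h. Its change was -0.09 in WT and 1.42 in HET, a difference of 1.51 (SE 0.36, limma adjusted p = 0.998). Next came Gm15441 and 4930578M01Rik, both at no more than 17.6 normalized counts in the 6 WT cultures, with limma adjusted p of 0.998 for the difference.

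**Figure D5:**
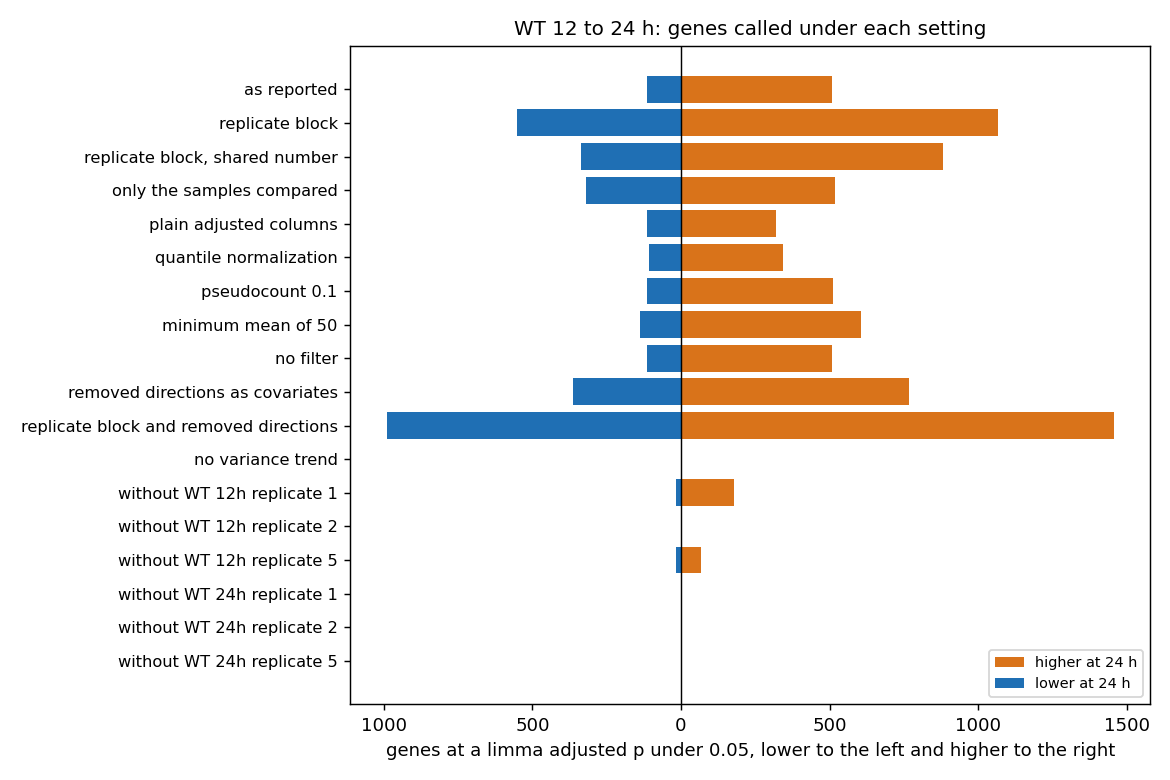
Number of genes at a limma adjusted p under 0.05 from 12 to 24 h in WT, higher to the right and lower to the left, as reported (509 and 113) and under each other setting. Calls disappear without the variance trend and without replicate 2 at 12 h or any 1 culture at 24 h, and reach 1457 and 990 with the replicate block and the removed directions.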

How the data were processed

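RNA was sequenced from 18 cultures, and 6 were analysed here with the other 12 sharing the estimate of spread. The submitters' processing notes name CASAVA 1.8.2, edgeR and the build mm10. The aligner, counting step, annotation and gene filter are not given in the sources used here. Per the file headers, the authors deposited normalized counts, a signal with no whole number and with column totals of 41.5 in units of 1e6. A further set of signal columns, which the authors deposited under the bare sample names, is called the plain adjusted columns. FPKM per sample, log2 fold changes and p-values were deposited by the authors too, and are printed only where named. The values are not counts, so no count test was run, and limma took the place of the edgeR test planned for counts.

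Values were transformed to log2(normalized count + 1), which understates changes of low genes. A minimum mean of 1 removed 0 of 17198 genes, and 16529 genes carried an Ensembl ID. In R 4.3.3 with limma 3.58.1, a group-means model of all 18 samples was fitted, and variances were moderated with eBayes along a trend in the mean (residual degrees of freedom 12, prior 4.97). Benjamini-Hochberg adjustment ran over all genes within each comparison, at a threshold of 0.05. "Called", "rose" and "fell" mean past that threshold. The fit was tested on simulated data. The plain adjusted columns span 15 of 17 possible dimensions between samples, so 2 directions had been taken out by a step that the headers do not name, and the residual degrees of freedom are fewer than the fit assumes.

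Replicate numbers were not treated as pairs. Genes named were the 12 largest rises and falls whose mean reached 1 CPM and whose groups did not overlap, the 6 largest changes in each direction in normalized counts, preset members of each list with up to 4 called members per direction, the 3 genes with the lowest p between genotypes, and Dynlrb1. A few genes that the rule names are not reported here. The members, the 46 lists and the motifs were chosen with earlier results of these data known. Lists are described by counts and medians and were not tested.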

Additional observations from a re-analysis of the deposited data

How the results depend on the processing

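Depth is unknown, 3 cultures a group give little precision, and no interval based on counts was possible. The 622 WT calls became 1621 with the replicate block within genotype, 1218 with a replicate block on the shared number, 1132 with covariates for the 2 removed directions and 2447 with both the replicate block and the removed directions. Without the variance trend 0 remained, with 3560 genes at an unadjusted p under 0.05. Leaving out 1 WT culture gave 0 to 197 WT calls. Leaving out 1 HET culture gave 1141 to 2915 HET calls against 3252, and the replicate block with removed directions gave 5900 in HET. Where a group is left with 1 fewer culture, fewer samples enter the fit; the cause of the other shifts was not tested. The WT count was 434 with the plain adjusted columns, 451 after quantile normalization, 839 with only the samples compared, 623 with a pseudocount of 0.1, 746 with a minimum mean of 50 and 622 without a filter. The share of calls that were higher, 81.8%, was 65.9% with the replicate block, 67.8% with the removed directions, 59.5% with both and 61.9% with only the samples compared. All 622 genes kept their sign wherever they were tested. Their sign was free to change only with the plain adjusted columns, quantile normalization or the removed directions, since their groups do not overlap. Of the 164 named genes, 0 of the 68 called and 23 of the 96 not called changed sign in at least 1 setting, Jun and Vangl2 among the latter. The difference between genotypes gave 0 calls in every setting. Deviations of same-numbered WT cultures at 12 and 24 h correlated at r = 0.16, -0.20 and 0.14 for numbers 1, 2 and 5, not above 0.1 in each pair, and number 2 did not correlate best with itself. The labels tie no number to a mouse, so the numbers were not taken as pairs. Xist did follow the number at both times in WT and HET, with 12850 to 25866 for number 1, 1056 to 2381 for number 2 and 36.1 to 90.0 for number 5, a hint of pairing from the data and not the design. The block gives more calls, and 621 of the 622 are among its 1621.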

Other observations

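The groups in this section were put together after the values had been seen, so their counts describe these cultures and support nothing by themselves. The background is 2.96% of genes called higher and 0.657% called lower in WT (13.1% and 5.76% in HET), with a median log2 change of 0.05 over all genes in WT.

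Aminoacyl-tRNA synthetases of the cytosol, which load amino acids onto tRNAs, mostly had small positive changes. Of 23 genes 7 rose, 0 fell and 22 had a positive change, with a median of 0.30. Lars had 7246, 7263 and 6489 normalized counts at 12 h and 9543, 9072 and 10040 at 24 h (log2 change 0.45, SE 0.10, limma adjusted p = 0.0242). Gars had 23087, 24261 and 23738 against 30323, 28754 and 31238 (log2 change 0.34, SE 0.08, limma adjusted p = 0.0364). Neither overlapped between the times. The others were Aars, Eprs, Mars, Nars and Wars, and in HET 10 of the 23 rose (against 13.1% of all genes).

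Genes of epithelial barriers and of the matriptase protease network gave 12 rises and 0 falls among 43 measured genes, with a median of 0.69. St14, which encodes the membrane protease matriptase, had 89.9, 101 and 78.3 at 12 h and 248, 275 and 305 at 24 h (log2 change 1.61, SE 0.34, limma adjusted p = 0.0242). Its inhibitor gene Spint1, the protease gene Tmprss11b and the protease inhibitor gene Spink5 rose too. Pkp2, a desmosome protein, had 245, 194 and 216 against 586, 615 and 613 (log2 change 1.47, SE 0.27, limma adjusted p = 0.0212). Both genes stood higher in all 3 cultures at 24 h. Grhl1, a transcription factor of the epidermis, rose by 1.03. The keratins, a list set apart from this one, had 0 calls among 25 and a median of 0.35, which was -0.24 over the keratins with a mean of at least 50.

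Among 33 p53 target genes 10 rose and 0 fell, with a median of 0.36. Phlda3, an inhibitor of AKT signalling, had 1815, 1382 and 1210 at 12 h and 2739, 2956 and 3500 at 24 h (log2 change 1.07, SE 0.22, limma adjusted p = 0.024). Ddias, Aen, Polk, Perp and Rb1 rose by 0.42 to 0.66.

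Lysosomal genes gave 14 rises and 0 falls among 63, with a median of 0.23. Dnase2a, the acid nuclease, had 153, 110 and 96.4 at 12 h and 368, 451 and 420 at 24 h. Scpep1, a carboxypeptidase, had 4047, 3753 and 3961 against 6584, 7170 and 7588 (log2 change 0.86, SE 0.17, limma adjusted p = 0.0222). Neither overlapped. Cd68, a lysosomal protein best known from macrophages, had 548, 507 and 347 against 854, 1054 and 1311 (log2 change 1.20). It was the 1 call among 17 macrophage markers, whose summed level overlapped between the times, with Csf1r at 456, 369 and 309 against 513, 521 and 414.

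Synaptic adhesion and postsynaptic scaffold genes went the other way, with 15 falls and 0 rises among 64 measured genes and a median of -0.40. Lrrtm2, a postsynaptic adhesion protein, had 1795, 1861 and 2312 at 12 h and 841, 850 and 1040 at 24 h (log2 change -1.12, SE 0.23, limma adjusted p = 0.024). Dlg4, the scaffold PSD-95, had 6810, 6602 and 5839 against 4808, 4731 and 4739 (log2 change -0.43, SE 0.09, limma adjusted p = 0.0247). Both were lower in all 3 cultures at 24 h. In HET 22 of the 64 fell and 4 rose (against 5.76% and 13.1% of all genes).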
